A study of Mus musculus with 27 samples.

Results

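The genes described here are 10 genes of axon growth in immature olfactory neurons: Gap43, Gng8, Stmn2, Dpysl3, Dpysl5, Crmp1, Tubb3, Dcx, Ncam1 and Marcksl1. They were chosen as a list of known genes, and all probes that the array annotation gives to them were taken, 17 of 29922 probes. A single probe represented 7 of the genes, and Ncam1, Dcx and Marcksl1 had several. Olfactory mucosa was taken from female mice of the FVB strain aged 25 days, in 3 groups of 3 biological replicates, with 3 arrays (a to c) per replicate. The occluded group was mucosa from the side of a nostril closed by cautery. The open group was mucosa from the other side of the same mice. The normal group was mucosa of other mice, which had received a sham cautery on the muzzle. All 3 groups thus share strain, sex and age, and the sources used here do not give the age at occlusion. Because open and occluded mucosa came from the same animals, the open side is a control within an operated mouse and not untreated tissue.

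Olfactory neurons are replaced throughout life from basal progenitor cells. A newly made neuron first grows an axon towards the olfactory bulb and only later completes its cilia and odor transduction machinery, so genes of axon growth mark the immature stage and Omp marks the mature one. The protein of Gap43 lies under the growth cone membrane and is the classical marker of immature olfactory neurons. Growth also needs a dynamic microtubule skeleton (Stmn2, Tubb3, Dcx), proteins that pass on repulsive semaphorin cues (the collapsin response mediator genes Crmp1, Dpysl3 and Dpysl5) and adhesion to neighbouring axons (Ncam1).

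In limma, 0 of the 17 probes had an adjusted p under 0.05 in any of the 3 comparisons, and 0 had an unadjusted p under 0.05. Over all probes, 0.221% passed between the occluded and open sides, 0.00668% between occluded and normal mucosa and 0% between open and normal mucosa. The shares with an unadjusted p under 0.05 were 6.19%, 2.88% and 1.59%. For 1 probe per gene, the one with the highest mean intensity, the log2 difference of occluded minus open lay between -0.43 and 0.15 over the 10 genes, with a median of -0.17 and 9 genes below 0. For occluded minus normal it lay between -0.53 and 0.14, with a median of -0.23 and again 9 genes below 0, and without occluded replicate 1 this median was -0.08. These comparisons share the occluded samples. For open minus normal the range was -0.25 to 0.14, the median -0.06, and 6 of 10 genes lay below 0. This median turned to 0.16 without open replicate 1 and to 0.03 without normal replicate 3. Values without a replicate come from refits. Where only 1 side of a mouse was left out, its other side stayed in the fit, and the correlation within a mouse was estimated again. Over 16637 named genes the medians were 0.01, 0.01 and -0.0037, with 48.6%, 48.0% and 51.0% of genes below 0. In whole tissue, fewer cells of a type and less RNA per cell cannot be told apart. No probe of the 10 genes was saturated on any array. A single Dcx probe lay below the noise limit, on 1 open and 1 normal array, and the other 16 probes lay above it on all 27 arrays.

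**Figure D1:**
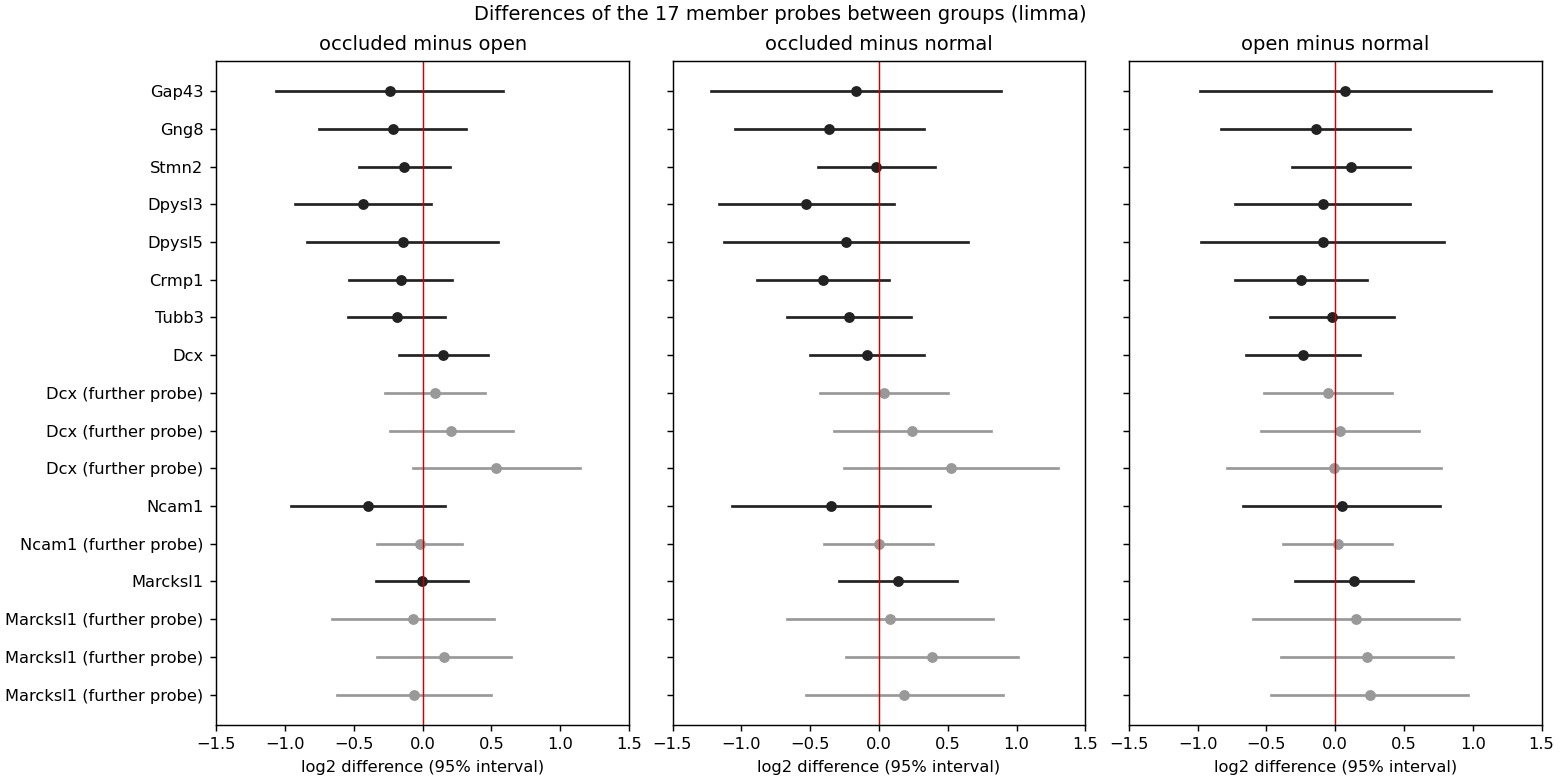
Log2 differences (x axis, with 95% intervals from limma) of the 17 probes of the growth genes in the 3 comparisons, black for the probe that stands for a gene and grey for further probes. Every interval crosses 0, and most black points of the first 2 panels lie left of it, with medians of -0.17 and -0.23.

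Values below are log2 intensities after quantile normalization, averaged over the 3 arrays of a replicate, in the order of replicates 1, 2 and 3. Gap43, described above, was at 8.11, 9.62 and 9.05 on the occluded side, against 8.01, 9.92 and 9.56 on the open side and 8.84, 9.29 and 9.15 in normal mucosa. The groups overlapped, and replicate 1 was the lowest of its group in each of them. Occluded minus open was -0.24 ± 0.36 (SE), with a 95% interval of -1.06 to 0.59 (limma adjusted p = 0.997). Occluded minus normal was -0.17 ± 0.46 and was 0.39 in the refit without occluded replicate 1. That refit kept open replicate 1, so its value is not the plain difference of the remaining means. Open minus normal was 0.07 ± 0.46. In refits with single replicates left out it ranged from -0.09 (without open replicate 2 or 3) to 0.76 (without open replicate 1), with -0.05 without normal replicate 1. Refits without an open replicate kept the occluded side of that mouse. Gap43 had the widest intervals of the 10 genes. Its 3 arrays per replicate also spread the most among the probes that stand for a gene (SD 0.47), and the SD between replicates of a group was 0.75.

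Marcksl1 encodes a membrane-bound relative of the protein kinase C substrate MARCKS that binds actin filaments. Its brightest probe was at 13.08, 13.40 and 13.57 on the occluded side, against 13.32, 13.39 and 13.35 on the open side and 13.08, 13.23 and 13.33 in normal mucosa. The sides differed by -0.0027 ± 0.15 (SE), and the 95% interval of -0.34 to 0.33 bounds this difference more tightly than that of Gap43. The 3 further probes differed by -0.07, 0.15 and -0.06 between the sides. Set against normal mucosa, all 4 probes lay above 0, between 0.08 and 0.39 for occluded and between 0.14 and 0.25 for open mucosa. None of these passed (smallest limma unadjusted p = 0.19).

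The adhesion molecule encoded by Ncam1 binds itself on neighbouring cells and bundles growing axons. The brighter of its 2 probes was at 12.27, 12.68 and 12.73 on the occluded side, against 12.32, 13.00 and 13.54 on the open side and 12.54, 13.21 and 12.97 in normal mucosa. It was lower on the occluded side in 3 of 3 pairs, which held for 12.6% of all probes. The differences were -0.05, -0.32 and -0.81, and the groups overlapped. The fitted difference was -0.39 ± 0.25 (SE, limma adjusted p = 0.94), with an interval of -0.96 to 0.17. At the dimmer probe the sides differed by -0.02 ± 0.14, with an interval of -0.33 to 0.29, so the probes of this gene gave different values. Ncam1 occurs in several isoforms and probe sequences were not used here, so which transcripts each probe reads was not tested.

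Gng8 encodes a G protein gamma subunit known from immature olfactory and from vomeronasal neurons. It was at 12.11, 11.81 and 12.07 on the occluded side, against 12.48, 12.22 and 11.94 on the open side and 12.77, 11.70 and 12.61 in normal mucosa. The normal replicates spread the most (SD 0.58, n = 3) and enclosed all 6 values of the operated mice, from 11.70 to 12.77. Occluded minus open was -0.22 ± 0.24 (SE, limma adjusted p = 0.997) and occluded minus normal was -0.36 ± 0.30, with an interval of -1.05 to 0.33. With single replicates left out, occluded minus normal ranged from -0.69 (without normal replicate 2) to -0.15 (without normal replicate 1). Of 17 alternatives only the first of these had an unadjusted p under 0.05 (limma unadjusted p = 0.020, adjusted p = 0.9999). The vomeronasal markers Trpc2, an ion channel of these neurons, and H2-M9 were higher on the occluded side than on the open side in 3 of 3 pairs, by 0.84 ± 0.17 (SE, limma unadjusted p = 0.00085, adjusted p = 0.16) and 0.76 ± 0.21 (limma unadjusted p = 0.0059, adjusted p = 0.41). These were picked from 9 measured vomeronasal markers after their values were seen, and being higher in 3 of 3 pairs held for 13.8% of all probes. Of the other 7, Calr4 (-0.59), Gnai2 (-0.43), H2-M10.1 (-0.37) and H2-M10.2 (-0.14) lay below 0 and 3 lay above, and the median of the 9 was 0.03. The part of vomeronasal tissue in the Gng8 values was not tested.

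Among the microtubule genes, Stmn2 encodes a growth cone protein that destabilizes microtubules. It was at 13.51, 13.60 and 13.52 on the occluded side, against 13.62, 13.75 and 13.64 on the open side and 13.50, 13.31 and 13.87 in normal mucosa. All 3 occluded values lay below all 3 open values, which held for 2.94% of all probes in this direction and for 1 of the 17 probes here. The opposite order held for 3.76% of all probes and for 0 of the 17. The step was small and even, with differences within pairs of -0.11, -0.16 and -0.12. The fitted difference was -0.13 ± 0.15 (SE, limma adjusted p = 0.997), and its standard error is larger than the spread of these pairs. Normal mucosa spanned both sides, and occluded minus normal was -0.02 ± 0.19.

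Tubb3 encodes the beta tubulin of neurons. It was at 12.91, 13.34 and 13.28 on the occluded side, against 13.05, 13.46 and 13.59 on the open side and 13.34, 13.34 and 13.50 in normal mucosa. It was lower on the occluded side in 3 of 3 pairs, which held for 12.6% of all probes. The fitted difference was -0.19 ± 0.15 (SE, limma adjusted p = 0.99), with an interval of -0.54 to 0.16. Beta tubulin genes are close in sequence, and so are the collapsin response mediator genes, so a probe may read relatives as well.

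The microtubule-binding protein of Dcx marks young and migrating neurons. Its brightest probe was at 12.72, 12.73 and 12.72 on the occluded side, against 12.81, 12.42 and 12.48 on the open side and 12.93, 12.66 and 12.82 in normal mucosa. The occluded replicates spread the least of all (SD 0.01, n = 3) and lay within the range of both other groups. Dcx was the single gene above 0 in occluded minus open, at 0.15 ± 0.14 (SE, limma adjusted p = 0.99). Its 3 further probes were also above 0, at 0.09, 0.21 and 0.54. The last of these was the dimmest probe of the 17 and was higher on the occluded side in 3 of 3 pairs, which held for 13.8% of all probes. Set against normal mucosa the brightest Dcx probe was at -0.08 ± 0.18 on the occluded side and at -0.24 ± 0.18 on the open side.

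Of the collapsin response mediator genes, Dpysl3 had the lowest difference of the 10 genes in both comparisons of the occluded side. It was at 12.32, 13.00 and 13.35 on the occluded side, against 13.32, 13.28 and 13.38 on the open side and 13.25, 13.33 and 13.67 in normal mucosa. The pairs differed by -0.99, -0.27 and -0.04, so replicate 1 gave most of the difference. Occluded minus open was -0.43 ± 0.22 (SE, limma unadjusted p = 0.079, adjusted p = 0.88), and it was -0.15 without replicate 1 of both sides. Occluded minus normal was -0.53 ± 0.28, with an interval of -1.16 to 0.11 (limma unadjusted p = 0.093), and it was -0.24 without occluded replicate 1. Across all probes, 83.8% had a smaller absolute difference between the sides than Dpysl3.

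Crmp1 was at 9.96, 10.35 and 10.12 on the occluded side, against 10.09, 10.21 and 10.62 on the open side and 10.56, 10.43 and 10.67 in normal mucosa. All occluded values lay below all normal values, which held for 3.09% of all probes in this direction and for 1 of the 17 probes here. The opposite order held for 3.57% of all probes and for 0 of the 17. Occluded minus normal was -0.41 ± 0.21 (SE, limma unadjusted p = 0.085, adjusted p = 0.99999), with an interval of -0.89 to 0.07. Occluded minus open was -0.16 ± 0.16, open minus normal was -0.25 ± 0.21, and in both of these the groups overlapped. Between open and normal mucosa 2.21% of all probes were lower and 2.06% higher without overlap, and 0 of the 17 in either direction.

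Dpysl5 was at 9.50, 10.63 and 11.05 on the occluded side, against 9.96, 10.67 and 10.996 on the open side and 10.2004, 10.89 and 10.81 in normal mucosa. Replicates 2 and 3 of the occluded and open sides differed by -0.03 and 0.06, and replicate 1 by -0.46. The fitted difference was -0.15 ± 0.30 (SE, limma adjusted p = 0.997). Between the sides, 4 of the 17 probes (Stmn2, Dpysl3, Tubb3 and the brighter Ncam1 probe) were lower on the occluded side in 3 of 3 pairs, against 12.6% of all probes.

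**Figure D2:**
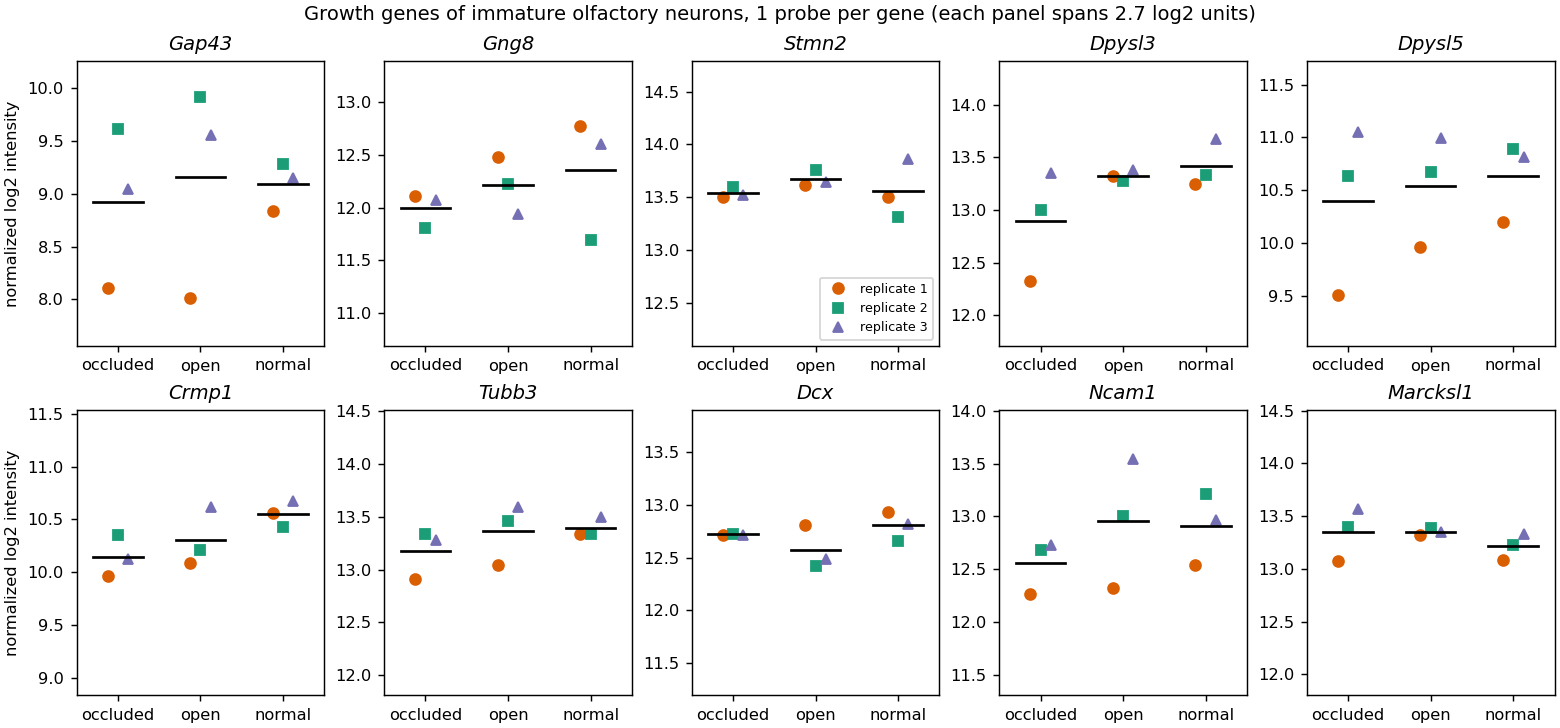
Normalized log2 intensity (y axis, mean of 3 arrays) of the 10 growth genes in the occluded, open and normal groups, with a marker for each replicate number and a line at the group mean. The groups overlap for most genes. Occluded Stmn2 lies below open Stmn2, occluded Crmp1 lies below normal Crmp1, and replicate 1 is lowest for Gap43, Dpysl5 and Ncam1 in every group.

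Some of the genes differed more between replicate numbers than between groups. For Gap43, Dpysl5 and the brighter Ncam1 probe, replicate 1 of every group lay below replicates 2 and 3 of all groups. This held for 3 of the 17 probes and for 10.5% of all probes, and the opposite order held for 0 of the 17 and for 12.1% of all probes. Gap43 averaged 8.32 in the 3 replicates of number 1, 9.61 in number 2 and 9.25 in number 3. Dpysl5 averaged 9.89, 10.73 and 10.95 over the same numbers, and Ncam1 averaged 12.37, 12.96 and 13.08. Replicate 1 thus lay 1.11 below the mean of the others for Gap43, 0.95 for Dpysl5 and 0.65 for Ncam1, each more than the difference between any of the groups. The normal mice are other animals than the operated mice of the same number, and the sources used here do not say what the numbers have in common. Over the 10 growth genes the summed linear intensity was 51173 to 64245 in replicate 1 of the groups, against 62405 to 75306 in the others, so these sums overlapped. Sums over some lists of markers of other cells did not. Of 5 sustentacular markers 3 were measured, and without Cbr2, which was saturated on 27 of 27 arrays, the sum of Cyp2g1 and Ermn was 7856 to 13446 in replicate 1, against 17367 to 27302. Progenitor markers summed to 5123 to 5330 in replicate 1, against 6050 to 7246. Of them Sox2, the brightest, Neurod1, Top2a and Mki67 were lower in replicate 1 of every group than in all others. Neurog1 was higher there, with log2 values of 10.48 to 10.53 against 9.42 to 10.26, and the remaining progenitor markers overlapped. Skeletal muscle markers summed higher in replicate 1, at 276 to 399 against 205 to 263. These muscle markers were dim, with log2 group means of 3.71 to 6.88, and Myh4 lay below the noise limit on 9 of 27 arrays. The mean log2 values of both lists, centred per gene, overlapped between replicate 1 and the others, at -0.30 to 0.10 against -0.03 to 0.30 for progenitors and at -0.02 to 0.61 against -0.24 to -0.0081 for muscle. Vomeronasal markers summed to 20351 to 22735, against 23037 to 28244, while their mean centred log2 value was higher in replicate 1 (0.12 to 0.24) than in the others (-0.24 to -0.0037). The sums of the mature neuron, horizontal basal cell, glial and brain markers overlapped between replicate 1 and the others. The part of these cells in the growth gene values was not tested. Without replicate 1 of all groups, an alternative chosen after seeing the data, 0 of the 17 probes passed in each comparison and the medians were -0.15 for occluded minus open, -0.07 for occluded minus normal and 0.04 for open minus normal.

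**Figure D3:**
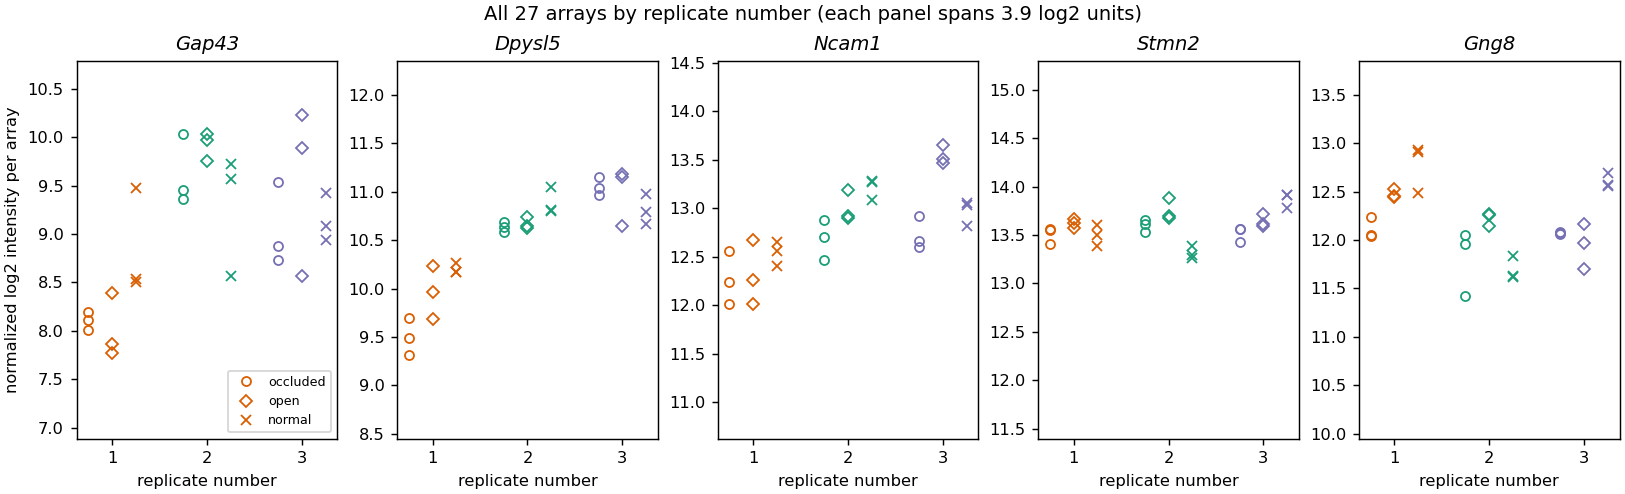
Normalized log2 intensity of each of the 27 arrays (y axis) for 5 growth genes by replicate number (x axis), with circles for occluded, diamonds for open and crosses for normal mucosa. Gap43, Dpysl5 and Ncam1 have lower replicate means at number 1 in all 3 groups, with 1 normal Gap43 array apart, while Stmn2 stays within 0.55 over the replicate means and Gng8 averages 12.45, 11.91 and 12.21 over the numbers.

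Among 13063 named genes with a probe above the noise limit and below saturation on all arrays, those with the highest Pearson correlation with Gap43 over the 9 replicate values were Spint2 (0.977), Gnpnat1 (0.970), Hprt (0.970), Smu1 (0.968) and Mbd2 (0.963). Hprt, an enzyme of purine salvage that is made in nearly all cells, was at 11.46 to 11.79 in replicate 1 of the groups and at 11.98 to 12.49 in the others. The 9 values share the step between replicate numbers, and 6 of them come in pairs from 1 mouse, so these coefficients are descriptions. Within the growth genes the coefficient with Gap43 was 0.86 for Tubb3, 0.79 for Dpysl5 and 0.76 for Ncam1, and it was -0.39 for Gng8 and -0.61 for Dcx. Of the 13063 genes, 95.8% had a lower coefficient than Tubb3 and 91.1% a lower one than Dpysl5.

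Promoters in the RefSeq table (build GRCm38.p6) were matched by symbol for 6 of the 10 genes. The windows of Tubb3 and Dpysl5 are shown because they had the highest correlation with Gap43 among the genes matched. A Crmp1 window is shown because the occluded and normal values of Crmp1 did not overlap. Each is the 250 bases before an annotated start, 5′ to 3′ on the plus strand, at chr8:123411303-123411552 for Tubb3, chr5:30711314-30711563 for Dpysl5 and chr5:37241808-37242057 for Crmp1. Capitals mark matches on either strand to 4 motifs: the E-box CANNTG of basic helix-loop-helix factors, CCCNNGGG, the core of the site of the EBF factors of olfactory neurons, the homeodomain site TAATTA and the GC box GGGCGG.
Tubb3: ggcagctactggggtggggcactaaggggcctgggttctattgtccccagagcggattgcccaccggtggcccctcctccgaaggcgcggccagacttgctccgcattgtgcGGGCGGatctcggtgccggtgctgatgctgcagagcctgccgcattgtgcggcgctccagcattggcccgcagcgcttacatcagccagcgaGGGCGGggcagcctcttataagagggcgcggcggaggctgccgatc
Dpysl5: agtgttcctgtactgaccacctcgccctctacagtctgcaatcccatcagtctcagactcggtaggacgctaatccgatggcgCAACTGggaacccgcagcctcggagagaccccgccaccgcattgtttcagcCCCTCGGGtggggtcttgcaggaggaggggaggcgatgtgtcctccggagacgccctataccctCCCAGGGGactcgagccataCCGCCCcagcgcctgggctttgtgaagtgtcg
Crmp1: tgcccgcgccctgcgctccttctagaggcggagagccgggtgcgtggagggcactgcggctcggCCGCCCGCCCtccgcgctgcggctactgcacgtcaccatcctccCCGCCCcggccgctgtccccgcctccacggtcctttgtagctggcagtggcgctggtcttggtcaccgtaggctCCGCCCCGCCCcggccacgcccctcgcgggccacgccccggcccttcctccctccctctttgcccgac
Tubb3 held 2 GC boxes, and the Crmp1 window shown held 5, of which 2 pairs share bases. A further Crmp1 window, before another annotated start and not shown, held 2 GC boxes and 1 E-box. Dpysl5 held 1 E-box, 1 GC box and 2 EBF cores, and it was the 1 window of 8 searched for these genes that held one. Of 32817 windows of this length in the table, 11.8% held the EBF core, 66.2% the E-box, 4.85% the homeodomain site and 32.7% the GC box. In the same order, 1, 3, 2 and 5 of the 8 windows of these genes held them. The 2 windows with the homeodomain site were overlapping windows of Dcx that share 1 site. These matches are letters in a window, and binding was not measured.

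Of 35 related genes of neurite growth and immature neurons, a list that holds none of the 10, 32 were measured. None passed in limma in any comparison. Between the sides 20 lay below 0 and 12 above, with a median log2 difference of -0.09, and 1 had an unadjusted p under 0.05. That gene was Rtn1, a reticulon of the endoplasmic reticulum in neurons, at 0.51 ± 0.18 (SE, limma adjusted p = 0.60). The next smallest p-values were those of the beta tubulin gene Tubb2b (-0.54 ± 0.25), Nhlh2, a transcription factor of young neurons (-0.70 ± 0.34), and the doublecortin-like kinase gene Dclk1 (-0.29 ± 0.15). In occluded minus normal 18 lay below 0 and 14 above, with a median of -0.08, and the smallest p-values were those of Tubb2b (-0.63 ± 0.32), Rtn1 (0.40 ± 0.23), the microtubule-associated protein gene Map1b (-0.99 ± 0.56) and Nhlh2 (-0.76 ± 0.44). Map1b was at 10.097, 10.04 and 8.25 on the occluded side, against 10.50, 9.78 and 11.06 in normal mucosa, so a single occluded replicate lay apart. In open minus normal the median was -0.03, and Dclk1 (0.38 ± 0.19), Ncam2 (0.30 ± 0.26), Map2 (-0.26 ± 0.24) and the adhesion gene Chl1 (0.32 ± 0.31) came first.

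Markers of other cells were measured beside the growth genes, and none passed in limma. Omp was saturated on 26 of 27 arrays and can show no direction. Without it the mature neuron markers lay above 0 for 8 of 9 genes in occluded minus open (median 0.47) and for 8 of 9 in occluded minus normal (median 0.35), while the growth genes lay below 0 for 9 of 10 in both. An unadjusted p under 0.05 was found for 5 of the mature markers in occluded minus open (Ric8b, Cnga2, Adcy3, Stoml3 and Gnal) and for 1 in occluded minus normal (Gnal), all of them higher, against 0 of the growth genes. Cnga2, the brightest of the 9, was saturated on 3 of 27 arrays and was at 15.75 to 15.93 on the occluded side. The summed linear intensity of these 9 markers was 183163 to 218044 in the occluded replicates, 144917 to 151197 in the open and 154738 to 161969 in the normal ones. For the growth genes the sums were 51173 to 65860, 61813 to 72208 and 63644 to 75306. The difference between the 2 lists was not tested. Markers of progenitors had a median of -0.09 between the sides over 9 genes, with sums of 5123 to 6165 on the occluded and 5314 to 7246 on the open side. Markers of olfactory bulb or brain, which also express most growth genes, had a median of 0.15 over 13 genes, 9 above 0 and 4 below. These markers summed to 6831 to 6941 on the occluded side, against 5785 to 5904 on the open side and 5553 to 6779 in normal mucosa. The brightest, Cdhr1, overlapped between the sides, with log2 values of 11.28, 11.82 and 11.84 against 11.23, 11.40 and 11.52. Gad1 was uneven on the occluded side, at 9.81, 6.85 and 4.72, against 7.29, 7.06 and 7.79 on the open side. Vomeronasal markers had a median of 0.03 over 9 genes, with sums of 20351 to 28244 against 20646 to 27157. Of them Trpc2 and H2-M9 had an unadjusted p under 0.05, and the more widely expressed Gnao1 and Gnai2 differed by 0.13 and -0.43. The medians between the sides were -0.29 for 4 horizontal basal cell markers, -0.07 for 6 glial markers and 0.11 for 5 muscle markers. Of the sustentacular markers, Cyp2g1 differed by -0.07 ± 0.37 and Ermn by -0.46 ± 0.60, and the saturated Cbr2 can show no direction. An unadjusted p under 0.05 was found for the progenitor marker Cdk1, which lay below the noise limit on 8 of 27 arrays and was highest in occluded replicate 1 (6.05), the brain marker Slc1a2 and the muscle marker Myl1, each higher, and for the horizontal basal cell marker Krt14, which was lower. No measured marker of these lists lay below the noise limit on all arrays. The part of other cells in the growth gene values was not tested.

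**Figure D4:**
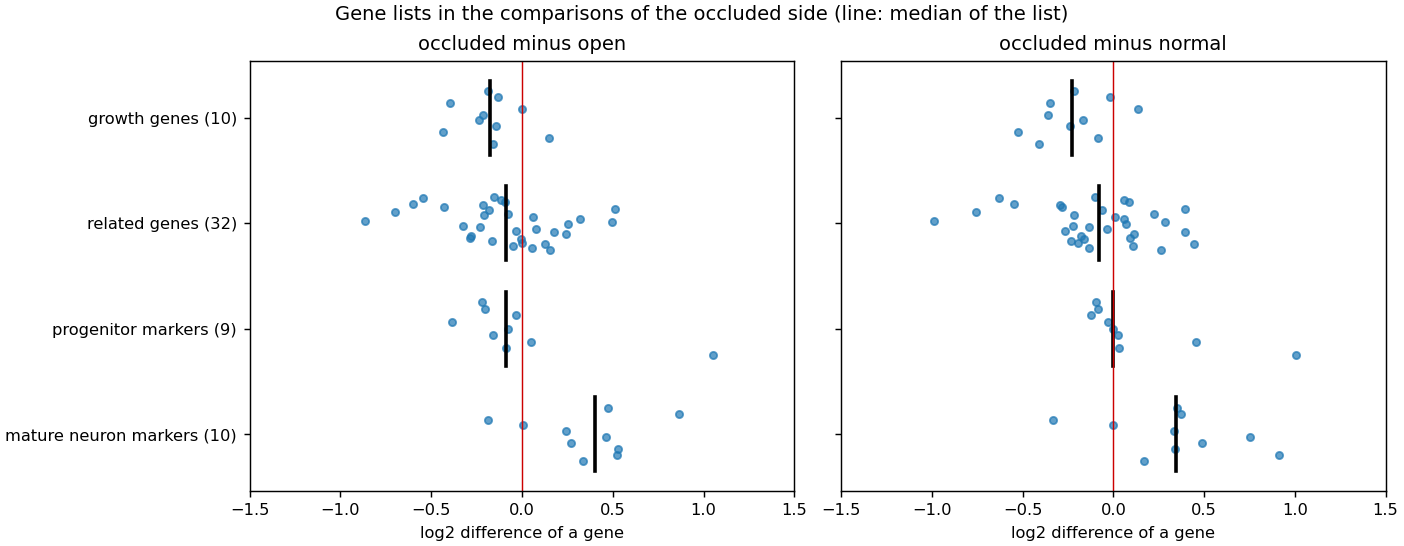
Log2 differences (x axis) of single genes in 4 lists, each point a gene and each line the median of its list, for occluded minus open and occluded minus normal. The growth genes have medians of -0.17 and -0.23, the related genes of -0.09 and -0.08, and the mature neuron markers, with the saturated Omp among the 10 points, of 0.40 and 0.35.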

How the data were processed

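The authors deposited linear intensity values of 29922 probes on 27 arrays. Per the labels' protocols, total RNA was amplified with amino-allyl UTP, coupled to Cy5 and hybridized as 1 sample per array. The sources used here do not give the scanner, the background method or the normalization. Values at or below 0 (1.45% to 3.93% of an array) show that a background had been subtracted, and such values were raised to 0.912, the lowest value above 0, before log2. Array medians lay between 123 and 274 and differed by 1.15 on the log2 scale, so arrays were quantile normalized, and arrays a to c of a replicate were averaged. The noise limit, 3 times the root mean square of an array's values below 0, lay between 11.6 and 24.1, and values at or above 99.5% of an array's highest count as saturated. The number of arrays and mice limits the precision.

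limma 3.58.1 (R 4.3.3, statmod 1.5.0, version 1.17.8 of data.table) fitted all probes on 9 replicate values with a random block for the mouse (correlation 0.389), two-sided, with Benjamini-Hochberg adjustment over all probes at 0.05, and was tested on simulated data. Equal numbers of occluded and open replicates were read as 1 mouse, since the design text states that these groups come from the same individuals. Deviations from the group means correlated at 0.516, -0.0044 and 0.142 in the 3 pairs, so the values do not settle which samples pair. For number 1 they also correlated with normal mucosa of other mice, at 0.353 (occluded) and 0.394 (open). For numbers 2 and 3 these values were 0.0015 to 0.104. The main fit has no term for the number, so steps between numbers widen its intervals against normal mucosa. With the number as a fixed block, no probe of the 10 genes passed. Alternatives covered the block, normalization, averaging, low values, dim probes, the prior, the groups fitted and single replicates left out. For occluded minus open, both sides of a mouse were left out. Against normal mucosa only 1 side was, and its other side stayed in the fit with the correlation estimated again. Such values can differ from differences of the remaining means. Symbols come from the array's annotation table, updated with RefSeq names of GRCm38.p6. Named were all probes of the 10 genes, up to 4 related genes per comparison by smallest p, and the 5 genes most like Gap43. Map1b and Hprt values, single markers of other cells and the replicate numbers were singled out after the data were seen. The genes and lists were chosen with earlier results of these data known, so no p-value is given for a list.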

Additional observations from a re-analysis of the deposited data

How the results depend on the processing

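In each comparison 0 of the 17 probes passed under every alternative run, with smallest adjusted limma p-values of 0.47, 0.998 and 0.91 in occluded minus open, occluded minus normal and open minus normal. Over all probes the count of 66 for the sides ranged from 0 to 93, that of 2 for occluded minus normal from 0 to 19, and that of 0 for open minus normal stayed at 0. With each pair of sides as a fixed replicate block 0 of the 17 passed (smallest adjusted p = 0.91, 0 of all probes), and with no replicate block 0 passed (3 of all probes). The block changed no call of these genes.

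The median of the 10 genes ranged from -0.20 to -0.10 in occluded minus open over 16 alternatives and from -0.27 to -0.07 in occluded minus normal over 18. It was -0.08 without occluded replicate 1. In open minus normal it ranged from -0.10 to 0.16 and was 0.16 without open replicate 1. Of 824 values of single probes under the alternatives, 76 had another sign than the reported one, 9 of them by more than 1 SE. With a replicate left out, occluded minus open ranged from -0.31 to 0.0093 for Crmp1 and, for 2 dim Marcksl1 probes, from -0.0741 to 0.35 and from -0.25 to 0.30. The first of these was -0.0741 also without replicate 1 of all groups. Occluded minus normal ranged from -0.29 to 0.39 for Gap43, from -0.45 to 0.28 for Dpysl5 and from -0.26 to 0.29 for a further Marcksl1 probe. Open minus normal ranged from -0.31 to 0.31 for Dpysl5 and from -0.19 to 0.36 for that Marcksl1 probe. The cause was not tested.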
